A study of Mus musculus with 24 samples.

Results

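The urea cycle genes reported here are Cps1, Otc, Ass1 and Asl, which are enzymes of the cycle, Nags, the enzyme that makes its activator, and Slc25a15 and Slc25a13, mitochondrial carriers that serve it. These 7 genes were chosen by name as parts of the pathway, with earlier results of these data known, and all 7 were among the 15160 genes of the count table and among the 13336 that passed the filter on low counts. The study asked whether NRF2, a transcription factor that responds to oxidative stress, takes part in the response of the liver to dietary methionine restriction (MR). Liver RNA of 24 male mice was sequenced, with 6 mice in each of 4 groups, and 22 mice are used here because the study left out WT_CON_7604 and WT_MR_7612 as outliers.

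WT mice were NRF2fl/fl, with both copies of Nfe2l2 (the gene of NRF2) floxed and no Cre, and they numbered 5 on the control diet (Con) and 5 on MR. NRF2 KO mice were their NRF2fl/(alb) littermates, which carried the same floxed alleles and 1 copy of Alb-cre, and they numbered 6 on Con and 6 on MR. Since the albumin promoter drives this Cre, the deletion is made mainly in hepatocytes, and other cells of the liver keep the gene. Con held 0.86% methionine and MR 0.17%, both diets lacked cysteine, all mice were fed Con before the study began, and the diets began at 8 weeks of age and were fed for 8 weeks before calorimetry and a period of recovery that preceded the harvest. The labels give the age as 5 months, and the livers were taken after a fast of 4 h. Each library is a different mouse.

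The libraries held 6197291 to 22068338 counts, with a median of 15019792 and the lowest in WT_MR_7615. The members had between 175 counts (Nags) and 18439 counts (Ass1) in a mouse. Levels are given as CPM (counts relative to the total of the library), scaled by TMM (a factor per library that evens out differences in RNA composition), as mean ± SD over mice. The reads of these libraries come from the 3′ end of each transcript, so a level was not divided by gene length and is compared between groups but not between genes.

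The urea cycle turns ammonia, which is toxic, into urea, and periportal hepatocytes are its main site. Carbamoyl phosphate is made from ammonia and bicarbonate by Cps1 in the mitochondrion and joined to ornithine by Otc to give citrulline, which leaves the mitochondrion and is joined to aspartate by Ass1. Asl splits the product into fumarate and arginine, and Slc25a15 carries ornithine back into the mitochondrion. N-acetylglutamate, the product of Nags, is the activator that Cps1 needs, and Slc25a13 (citrin) exports the aspartate that Ass1 uses. The enzymes are known to follow the amount of amino acids that the liver burns, with glucagon and glucocorticoids as inducers.

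In the files' build, GRCm38, with the GENCODE M21 annotation, Cps1 (ENSMUSG00000025991) lies at chr1:67123026-67231259 on the plus strand, Otc (ENSMUSG00000031173) at chrX:10252305-10321024 (plus), Ass1 (ENSMUSG00000076441) at chr2:31470207-31520672 (plus) and Asl (ENSMUSG00000025533) at chr5:130011258-130029247 (minus). Nags (ENSMUSG00000048217) lies at chr11:102145513-102149477 (plus), Slc25a15 (ENSMUSG00000031482) at chr8:22375551-22398597 (minus) and Slc25a13 (ENSMUSG00000015112) at chr6:6041218-6217173 (minus). All are protein-coding, and each lies on a chromosome of its own. Of the 7, only Nags is overlapped by another annotated gene, the antisense transcript Gm11586, which is not among the genes counted.

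Promoter stretches are shown for 2 members, Nags and Ass1, and for 2 neighbours of the cycle that rose with MR, Asns and Pycr1, chosen after the matches were seen because they hold a short element to which the stress factor ATF4 is known to bind with C/EBP proteins. Each is the 250 bases before the transcription start in RefSeq's mouse promoters (GRCm38.p6), 5′ to 3′ on the strand of the gene, with matches in capitals. The motifs searched on both strands were TGACNNNGC (core of the antioxidant response element that NRF2 binds), TGATGNAA (C/EBP-ATF element), TTGCNNAA (C/EBP element) and TGACGTCA (cAMP response element), which may overlap each other, and of 32851 windows of this length 10.2%, 3.45%, 9.56% and 1.55% hold them. The windows are Nags at chr11:102145263-102145512 (plus), Ass1 at chr2:31470020-31470269 (plus), Asns at chr6:7693210-7693459 (minus) and Pycr1 at chr11:120643749-120643998 (minus).
Nags: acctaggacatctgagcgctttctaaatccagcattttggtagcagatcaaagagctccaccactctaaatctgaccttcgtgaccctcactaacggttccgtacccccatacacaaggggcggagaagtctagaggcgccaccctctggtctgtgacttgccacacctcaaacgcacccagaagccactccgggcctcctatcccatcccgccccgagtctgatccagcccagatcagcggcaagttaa
Ass1: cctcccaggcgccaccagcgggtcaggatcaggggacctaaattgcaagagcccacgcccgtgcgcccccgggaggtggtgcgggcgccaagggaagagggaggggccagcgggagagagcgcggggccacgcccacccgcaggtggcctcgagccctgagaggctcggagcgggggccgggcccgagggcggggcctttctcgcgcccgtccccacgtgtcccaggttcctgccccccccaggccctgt
Asns: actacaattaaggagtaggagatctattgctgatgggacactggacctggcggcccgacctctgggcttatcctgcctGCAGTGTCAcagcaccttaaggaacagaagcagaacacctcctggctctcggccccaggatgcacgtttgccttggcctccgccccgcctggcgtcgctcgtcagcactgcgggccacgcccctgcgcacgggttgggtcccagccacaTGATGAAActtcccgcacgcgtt
Pycr1: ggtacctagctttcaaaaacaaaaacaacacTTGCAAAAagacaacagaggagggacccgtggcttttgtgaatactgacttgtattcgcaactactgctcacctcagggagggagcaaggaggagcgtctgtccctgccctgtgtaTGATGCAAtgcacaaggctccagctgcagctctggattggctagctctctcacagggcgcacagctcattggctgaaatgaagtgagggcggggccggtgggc

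Asns held GCAGTGTCA, the antioxidant core read on the minus strand, and TGATGAAA, which begins 23 bases before the start. Pycr1 held TTGCAAAA and TGATGCAA, the latter beginning 103 bases before its start. The C/EBP-ATF letters were also in windows of Slc7a7, which rose with MR, and of Got1 (TTGCATCA on the minus strand). Got1 fell in NRF2 KO, a call that was lost in 10 of 22 fits without 1 mouse. Aldh18a1, which rose, held none of the 4 sets. Whether the letters go with the direction of change was not tested. Of the members, Otc, Ass1, Nags, Slc25a15 and Slc25a13 were matched to 6 windows, and none of the 4 sets of letters was in these windows. Cps1 and Asl were not matched. A match is a run of letters, not a site shown to be bound, and its absence says only that these letters are not in the window.

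Nfe2l2, the deleted gene, was checked before the members. Its tags were more numerous in NRF2 KO than in WT mice, with 281 ± 43.9 CPM in NRF2 KO Con (n = 6) against 158 ± 93.0 in WT Con (n = 5), and with 226 ± 15.8 CPM against 100.1 ± 4.94 in the same order on MR (n = 6 and 5). A 3′ tag outside the excised stretch does not check a deletion, and where the tags of Nfe2l2 fall relative to that stretch was not tested here. In the library labelled WT_CON_7607 Nfe2l2 was at 324 CPM, among the NRF2 KO Con mice (227.8 to 339), whereas the other 9 WT libraries lay between 94.0 and 125, and without it the WT Con mean was 117 ± 7.71 CPM (n = 4). The two-sided exact permutation test between genotypes gave p = 0.0238 on Con and p = 0.00216 on MR (the smallest for 6 against 5). The study genotyped all mice by PCR and measured the excised exon by qPCR, and those data were not analysed here. Since the Nfe2l2 level of the library labelled WT_CON_7607 goes against its label, the values of Otc and Asl, which it moved most among the members, and the calls of the lists below that it ended are also given without it.

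The tissue was checked by its markers. All 10 listed hepatocyte markers were detected, led by Alb, with a summed level of 109700 CPM in WT Con, 88960 in WT MR, 125700 in NRF2 KO Con and 110900 in NRF2 KO MR. All 11 periportal markers were detected as well. In bulk liver fewer cells of a type and less RNA per cell cannot be told apart.

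None of the 7 urea cycle genes differed between MR and Con in either genotype, or between NRF2 KO and WT mice on either diet, at the threshold used (an edgeR quasi-likelihood p, adjusted over 13336 genes by Benjamini-Hochberg, under 0.05). Across all genes tested, 13.8% were called between the WT diet groups, 12.6% between the NRF2 KO diet groups, 2.07% between genotypes fed Con, 1.93% between genotypes fed MR and 0.045% for the interaction of genotype and diet. At an unadjusted p under 0.05 the same edgeR test counted Nags and Slc25a15 with MR in each genotype (2 members each time), Slc25a15 between genotypes fed Con (1 member), and 0 members between genotypes fed MR and for the interaction. Of all genes, 28.3%, 27.3%, 14.4%, 13.9% and 7.56% had such a p in the 5 comparisons, in the order above, so that the 2 members for MR in each genotype are near the background. On the same 22 mice DESeq2 called 1 member, Nags for MR in WT, while it called 14.9%, 14.3%, 3.18%, 3.79% and 0.281% of all genes. Limma on the deposited normalized counts called 0 members and 14.1%, 12%, 1.84%, 2.1% and 0.045% of all genes.

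Each fitted interval is for 1 gene in 1 comparison under the scaling used, and the widest of them reach past some changes of neighbouring genes that are called below. The intervals do not include the choice of scaling. Scaling by library size only moved the median log2 fold change of all genes by 0.156 for MR in NRF2 KO and 0.0928 for MR in WT. Over the 7 genes and 5 comparisons, every one of the 35 fitted 95% intervals lay between -1 and 1 on the log2 scale, from -0.73 at the lowest end (Otc, interaction) to 0.70 at the highest (Ass1, interaction). Within a 1.5-fold change in either direction lay 6 of the 7 intervals in each diet comparison, 7 between genotypes fed Con, 6 between those fed MR and 5 of the interaction intervals. The median size of the log2 fold change, regardless of sign, was 0.16 for the members against 0.19 for all genes with MR in WT mice and 0.14 against 0.17 with MR in NRF2 KO mice. Between genotypes it was 0.14 against 0.13 on Con and 0.02 against 0.13 on MR.

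**Figure D1:**
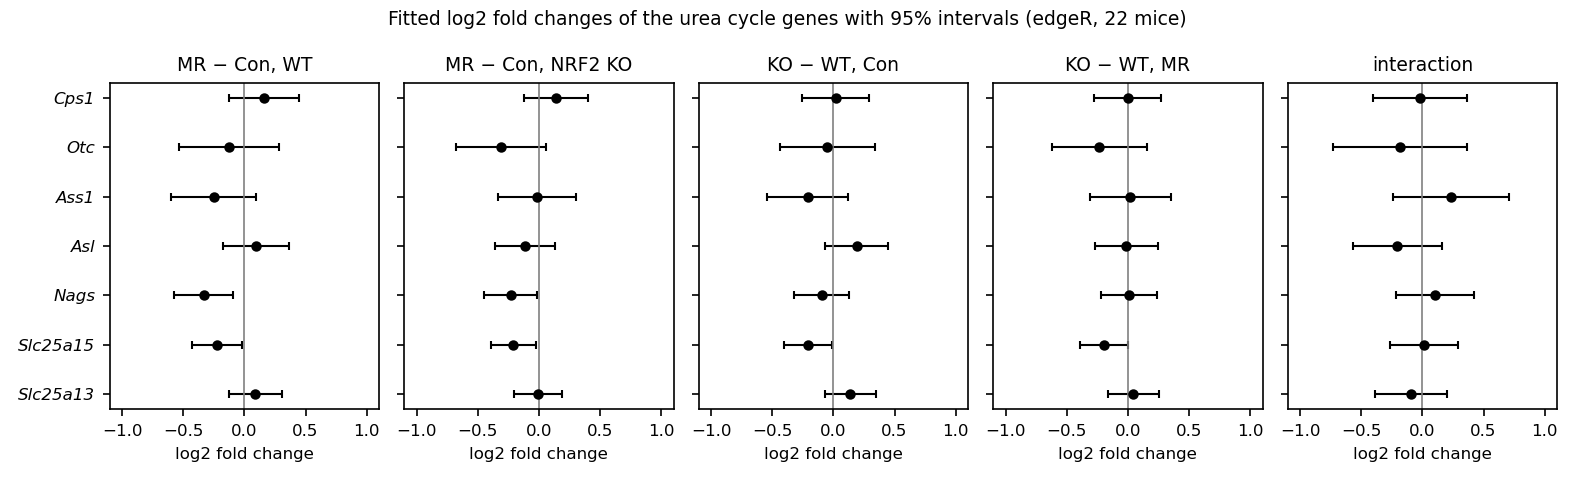
Fitted log2 fold change (x axis, point) and 95% interval (bar) of each urea cycle gene (rows) in 5 comparisons (panels) over 22 mice, from edgeR. All 35 intervals lie between -1 and 1, and those that do not reach 0 are Nags and Slc25a15 for MR in both genotypes and Slc25a15 for genotype on Con.

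The summed level of the 7 genes was 2318 ± 268 and 2249 ± 211 CPM in WT mice fed Con and MR (n = 5 each) and 2239 ± 304 and 2196 ± 212 CPM in NRF2 KO mice fed Con and MR (n = 6 each). The ranges of the groups overlapped, and the lowest WT mouse was WT_MR_7615, at 1887 CPM.

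The mitochondrial steps come first. Cps1, which commits ammonia to the cycle, was at 724, 446, 653, 675 and 763 CPM in the WT Con mice and at 741, 795, 788, 566 and 754 in the WT MR mice. In NRF2 KO its lowest, median and highest values were 443, 687 and 799 CPM on Con and 663, 725 and 829.9 on MR. All 4 groups overlapped, with WT_MR_7615 standing below the other WT MR mice. The lowest Con mice, WT_CON_7603 at 446 CPM and KO_CON_7621 at 443, lower the Con means and so enlarge the MR values that follow. The log2 fold change with MR was 0.16 in WT (standard error 0.14, interval -0.13 to 0.45, edgeR adjusted p = 0.491) and 0.14 in NRF2 KO (standard error 0.13, interval -0.12 to 0.40). The genotype difference in Cps1 was 0.02 on Con (interval -0.25 to 0.29) and -0.00080 on MR (interval -0.27 to 0.27), in log2 units.

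Otc, which forms citrulline, had a wide spread between the NRF2 KO MR mice, at 158, 249.6 and 356 CPM for the lowest, median and highest. Its means were 315 ± 85.2 and 289 ± 46.2 CPM in WT mice fed Con and MR (n = 5 each) and 304 ± 53.2 and 246 ± 66.8 CPM in NRF2 KO mice fed Con and MR (n = 6 each). The groups overlapped in all 4 comparisons. The log2 fold change of Otc with MR was -0.13 in WT (standard error 0.20), -0.23 with the library labelled WT_CON_7607 left out, and -0.31 in NRF2 KO (standard error 0.18, interval -0.68 to 0.06). The genotype difference in Otc was -0.05 on Con (standard error 0.19), -0.16 without that library, and -0.23 on MR (standard error 0.19), and the interaction was -0.18 (standard error 0.26), or -0.080 without that library, in log2 units.

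Nags had the smallest p of the 7 genes for MR in WT. Its level was 27.8, 26.2, 29.7, 24.6 and 24.5 CPM in the WT Con mice and 22.6, 19.0, 18.4, 26.4 and 19.7 in the WT MR mice. Of the WT MR mice 4 lay below every WT Con mouse, and WT_MR_7615, the shallowest library, lay among them. In NRF2 KO the lowest, median and highest values were 20.4, 25.1 and 28.6 CPM on Con and 17.4, 21.7 and 24.5 on MR, and the ranges overlapped. The log2 fold change of Nags with MR was -0.33 in WT (standard error 0.12, interval -0.57 to -0.09, unadjusted p = 0.00820, edgeR adjusted p = 0.0560) and -0.23 in NRF2 KO (standard error 0.10, interval -0.45 to -0.02, edgeR adjusted p = 0.151).

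The value of Nags in WT passed the threshold in 4 alternatives, which were a filter that asked for 10 or more counts in each library (edgeR adjusted p = 0.0414), DESeq2 (adjusted p = 0.0484), leaving out WT_MR_7615 (edgeR adjusted p = 0.0233) and leaving out KO_CON_7617 (edgeR adjusted p = 0.0479). Its adjusted p was highest, 0.218, with scaling by library size only in edgeR, was 0.0914 over all 24 mice, and was 0.0606 without the library labelled WT_CON_7607 (log2 fold change -0.36). The genotype difference in Nags was -0.10 on Con (standard error 0.11, interval -0.32 to 0.13) and 0.01 on MR (standard error 0.11, interval -0.22 to 0.24), and the interaction was 0.10 (standard error 0.16), in log2 units.

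Slc25a15, the ornithine carrier, had lower fitted values on MR in both genotypes, which did not pass the threshold. Its level was 232, 237, 294, 213.5 and 229.5 CPM in the WT Con mice and 180.1, 211, 245, 183 and 215 in the WT MR mice. In NRF2 KO the lowest, median and highest values were 181, 206.5 and 257 CPM on Con and 169, 180.1 and 194 on MR. The ranges overlapped in both genotypes, and WT_CON_7605 stood above the other WT Con mice. The log2 fold change of Slc25a15 with MR was -0.22 in WT (standard error 0.10, interval -0.43 to -0.02, edgeR adjusted p = 0.141) and -0.21 in NRF2 KO (standard error 0.09, interval -0.40 to -0.02, edgeR adjusted p = 0.133). Between genotypes the value was -0.21 on Con (standard error 0.09, interval -0.40 to -0.01, edgeR adjusted p = 0.311) and -0.19 on MR (standard error 0.10, interval -0.39 to 0.00091).

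Slc25a13, the aspartate and glutamate carrier, had means of 287 ± 23.7 and 305 ± 44.5 CPM in WT mice fed Con and MR (n = 5 each) and 316 ± 49.3 and 314 ± 14.6 CPM in NRF2 KO mice fed Con and MR (n = 6 each). Its log2 fold change with MR was 0.09 in WT (standard error 0.11) and -0.01 in NRF2 KO (standard error 0.10, interval -0.20 to 0.19). Between genotypes it was 0.14 on Con (standard error 0.10) and 0.04 on MR (standard error 0.10), and the groups overlapped in all 4 comparisons.

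The cytosolic steps follow. Ass1, which joins citrulline to aspartate, had means of 663 ± 129 and 557 ± 123 CPM in WT mice fed Con and MR (n = 5 each) and 572 ± 122 and 565 ± 92.2 CPM in NRF2 KO mice fed Con and MR (n = 6 each). In NRF2 KO MR 5 mice lay between 468 and 566 CPM and KO_MR_7632 was at 739.7. The same library had the highest summed level of the 6 pancreatic acinar markers in the table, 48.6 CPM. The other NRF2 KO MR libraries had at most 0.564 CPM. The part of the acinar signal in the Ass1 level of KO_MR_7632 was not tested. Within its group KO_MR_7632 was also highest in Cps1 (829.9 CPM) and Otc (355.9 CPM). Other NRF2 KO MR mice were highest in Asl, Nags, Slc25a15 and Slc25a13. The log2 fold change of Ass1 with MR was -0.25 in WT (standard error 0.17, interval -0.60 to 0.10), between -0.35 without WT_CON_7603 and -0.14 without WT_MR_7615, and -0.02 in NRF2 KO (standard error 0.15, interval -0.34 to 0.30). The genotype difference in Ass1 was -0.21 on Con (standard error 0.16) and 0.02 on MR (standard error 0.16), and the interaction was 0.23 (standard error 0.23, interval -0.24 to 0.70), in log2 units.

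Asl, which releases arginine, had its widest spread in WT Con, at 136, 155, 176, 89.6 and 109.8 CPM, with the library labelled WT_CON_7607 lowest. The other means were 142 ± 13.7 CPM in WT MR (n = 5) and 152 ± 20.8 and 141 ± 10.2 CPM in NRF2 KO mice fed Con and MR (n = 6 each). The log2 fold change of Asl with MR was 0.09 in WT (standard error 0.13), -0.02 with the library labelled WT_CON_7607 left out, and -0.11 in NRF2 KO (standard error 0.12), or -0.034 without KO_CON_7617. The genotype difference in Asl was 0.19 on Con (standard error 0.13, interval -0.07 to 0.45), and -0.01 on MR (standard error 0.13), and the interaction was -0.20 (standard error 0.18), in log2 units. In fits without 1 mouse the difference on Con ran from 0.079 (without the library labelled WT_CON_7607) to 0.30 (without WT_CON_7605), and leaving out the same 2 libraries gave -0.096 and -0.32 for the interaction, in that order.

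**Figure D2:**
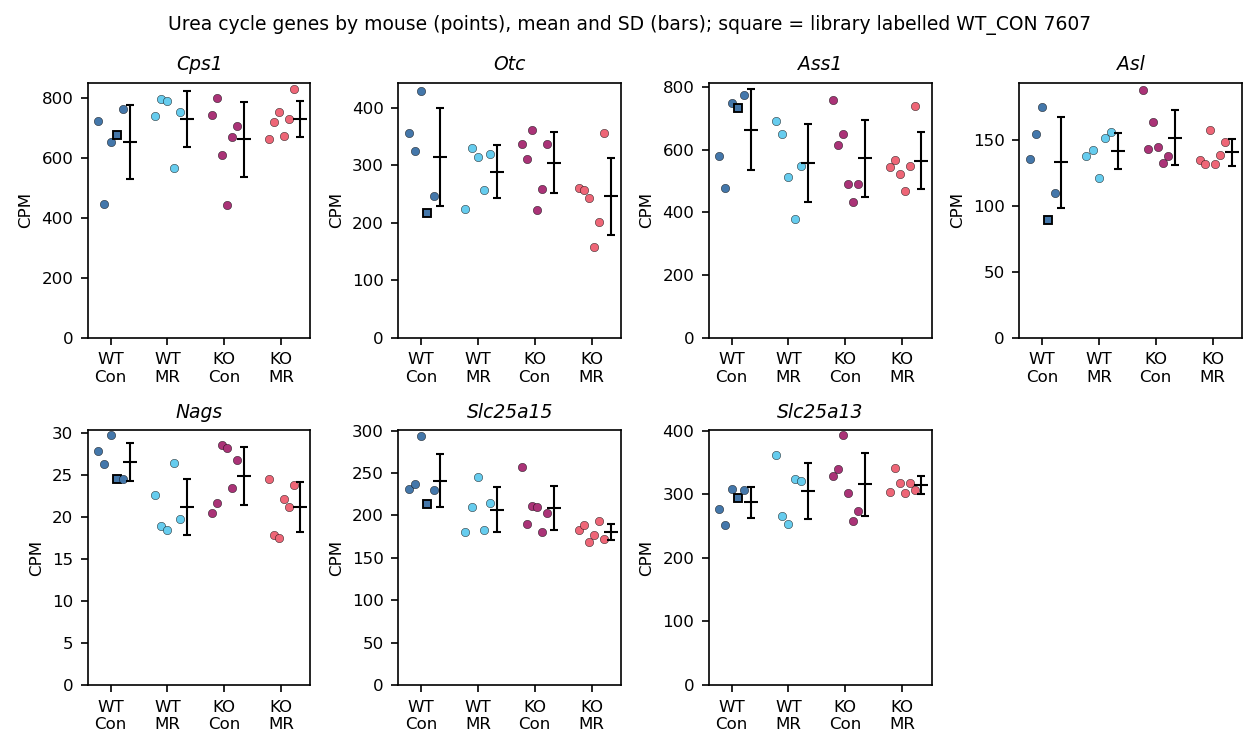
Level in CPM (y axis, from 0) of each urea cycle gene in every mouse (points) by group, with the mean and SD (bars) and the library labelled WT_CON_7607 as a square. In all 28 pairings of a gene with a comparison by diet or by genotype the groups overlap, as for Nags, with WT Con between 24.5 and 29.7 CPM and WT MR between 18.4 and 26.4.

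In none of 28 pairings of a member with a comparison of 2 groups were the groups without overlap. Among all genes tested, 9.32% had no overlap between the WT diet groups, 5.45% between the NRF2 KO diet groups, 1.83% between genotypes fed Con and 4.6% between genotypes fed MR. The order of the group means was not shared by the 7 genes. Otc, Nags and Slc25a15 ran in the same order, from WT Con through NRF2 KO Con and WT MR to NRF2 KO MR. Cps1 was highest in WT MR, while Asl and Slc25a13 were highest in NRF2 KO Con and Ass1 in WT Con. For MR in WT the fitted values were positive for 3 members and negative for 4, and in NRF2 KO they were positive for 1 and negative for 6. These tallies depend on the setting. Scaling by library size only turned Asl (0.046), Ass1 (0.137) and Slc25a13 (0.153) positive for MR in NRF2 KO. For MR in WT, Asl was negative without the library labelled WT_CON_7607 (-0.017), and Otc turned positive in another fit without 1 mouse.

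Across the 22 mice the correlations between members were mostly weak. Over the 21 pairs of members the median Pearson correlation of log2 CPM was 0.13, and 14 of the pairs were positive. The highest was Otc with Slc25a15, at 0.558, and the lowest Cps1 with Nags, at -0.577. After the group means were taken out the median was 0.151, the highest was Cps1 with Ass1, at 0.613, and Cps1 with Nags was at -0.492. These are descriptions over libraries that differ in depth and share their scaling. Outside the members, the 5 genes whose profile was most like the mean scaled log2 CPM of the 7, among 6881 genes with at least 10 CPM on average, were C130074G19Rik (Pearson r = 0.879 over 22 mice), Edf1 (0.873), Sardh (0.865), Uqcrc1 (0.855) and Os9 (0.853).

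Genes around the cycle included some that changed with MR. Of 70 genes on 4 lists (glutamate, glutamine and aspartate metabolism, disposal of arginine and ornithine, transport of substrates, and regulators), 62 were tested, of which 17 were called for MR in WT (14 higher, 3 lower, 27.4% beside 13.8% of all genes) and 19 for MR in NRF2 KO (10 higher, 9 lower, 30.6% beside 12.6%). For genotype the counts were 2 on Con and 1 on MR, at 3.23% and 1.61% beside 2.07% and 1.93% of all genes, and with DESeq2 they were 5 and 1, beside its 3.18% and 3.79% of all genes. For the interaction edgeR, DESeq2 and limma each called 0 of the 62, and 4 had an unadjusted edgeR p under 0.05, beside 7.56% of all genes. The counts of each single list below stand beside the same shares of all genes, 13.8% for MR in WT and 12.6% for MR in NRF2 KO. No test was made of whether these lists or the members stand apart from other genes.

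**Figure D3:**
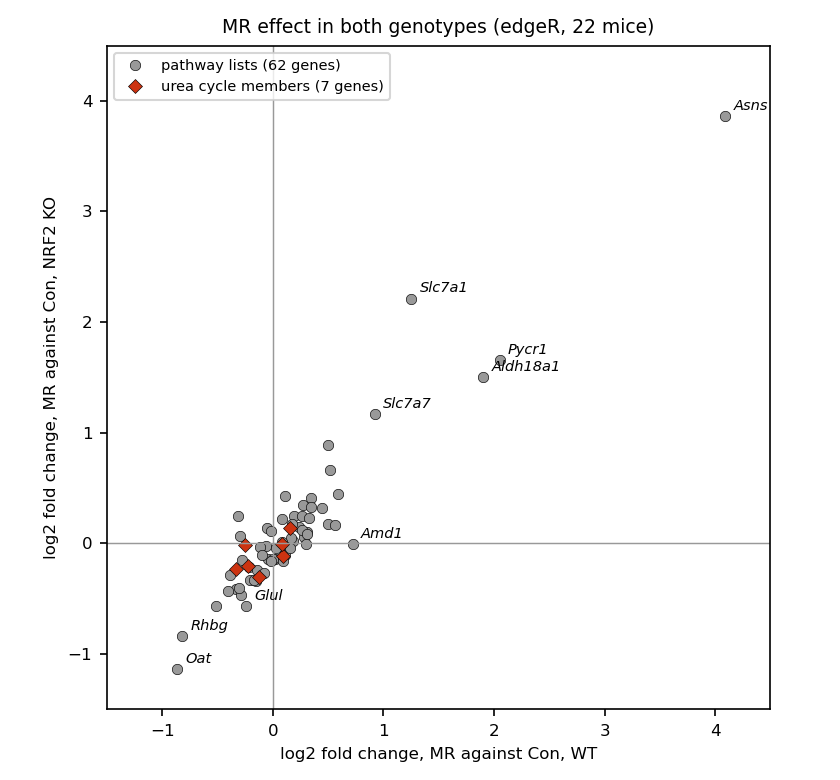
Log2 fold change with MR in WT (x axis) against NRF2 KO (y axis) for the 7 urea cycle genes (red diamonds) and 62 neighbouring genes of the 4 lists (grey points), from edgeR over 22 mice. The members run from -0.33 to 0.16 on the x axis and -0.31 to 0.14 on the y axis, while Asns lies at 4.09 and 3.86 and Oat at -0.87 and -1.14.

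Among the genes of glutamate, glutamine and aspartate metabolism the largest change was that of Asns. Asns uses aspartate and glutamine to make asparagine, and it was at 4.79 ± 1.08 CPM on Con and 82.3 ± 7.40 on MR in WT (n = 5 each) and rose in NRF2 KO from a median of 4.503 to one of 60.19 CPM (n = 6 each), with no overlap. Its log2 fold changes were 4.09 and 3.86 (standard errors 0.24 and 0.22, edgeR adjusted p = 9.1e-10 and 5.89e-10). Mdh2, the mitochondrial malate dehydrogenase, rose by 0.27 and 0.25 on the log2 scale (edgeR adjusted p = 0.0259 and 0.0249). In NRF2 KO, Glul, which makes glutamine in pericentral hepatocytes, fell by 0.57 and Got1, the cytosolic aspartate aminotransferase, fell by 0.44 (edgeR adjusted p = 0.00328 and 0.0423), whereas in WT neither was called (Glul -0.24, Got1 -0.40). Over all 24 mice the Glul call was lost (edgeR adjusted p = 0.191). Of the 14 genes tested on this list, 2 were higher for MR in WT, and 2 were higher and 2 lower in NRF2 KO. The 2 in WT are near the background of 13.8% of all genes. The count in WT was 1 without WT_CON_7603, WT_MR_7609 or WT_MR_7615 and where only the groups compared were fitted, and the count of 4 in NRF2 KO was 2 without KO_CON_7618 or KO_MR_7629.

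Of the 20 genes tested on the arginine and ornithine list, 5 were higher and 2 lower for MR in WT, and 3 were higher and 3 lower in NRF2 KO. The count of 7 in WT was 3 without WT_MR_7615, 4 without WT_MR_7613 and 3 over all 24 mice (Aldh18a1, Amd1 and Pycr1). Pycr1, the last enzyme of proline synthesis, was at 0.614 ± 0.224 and 2.60 ± 0.770 CPM in WT mice fed Con and MR (n = 5 each), and at 0.637 ± 0.198 and 2.04 ± 0.536 CPM in NRF2 KO mice fed Con and MR (n = 6 each). Its log2 fold changes were 2.05 and 1.66 (standard errors 0.28 and 0.26, edgeR adjusted p = 4.93e-05 and 0.000230). Aldh18a1, which starts proline and ornithine synthesis from glutamate, rose by 1.90 in WT on the log2 scale (edgeR adjusted p = 0.000947) and by 1.499 in NRF2 KO (edgeR adjusted p = 0.00420). Its level was low, from 0.4175 to 1.097 CPM in WT Con and from 1.195 to 4.068 in WT MR, without overlap. In NRF2 KO it ran from 0.4101 to 0.9923 CPM on Con and from 0.6949 to 2.469 on MR, and the groups overlapped.

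Oat, which turns ornithine into glutamate semialdehyde, was lower with MR. It was at 309, 530.4, 321, 560.4 and 580.5 CPM in the WT Con mice and at 288, 167, 276, 243 and 287 in the WT MR mice, so that the groups did not overlap. In NRF2 KO it ran from 316 to 551.5 CPM on Con and from 93.6 to 271 on MR. The log2 fold changes were -0.87 in WT (standard error 0.27, edgeR adjusted p = 0.0363) and -1.14 in NRF2 KO (standard error 0.25, edgeR adjusted p = 0.00496). In WT the call was lost without the library labelled WT_CON_7607 (-0.78, edgeR adjusted p = 0.0828) and over all 24 mice (edgeR adjusted p = 0.116).

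Ddah1, which breaks down methylated arginine, rose by 0.52 in WT and 0.67 in NRF2 KO on the log2 scale (edgeR adjusted p = 0.0421 and 0.00645), and the WT call was lost without the library labelled WT_CON_7607 (0.44, edgeR adjusted p = 0.1) and over all 24 mice (edgeR adjusted p = 0.0702). Agmat, an agmatinase, was called in NRF2 KO (-0.42, edgeR adjusted p = 0.0136) and not in WT (-0.33). The remaining calls on the list, Odc1 (higher) and Gamt (lower) in WT and Oaz1 (lower) in NRF2 KO, are outside the rule for named genes and were picked out after their values were seen.

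Amd1, which makes the aminopropyl donor of the polyamines from S-adenosylmethionine, was the one gene of the lists called for genotype on MR. It rose with MR in WT from 12.2 ± 2.72 CPM (n = 5) to 20.3 ± 2.41 (n = 5), a log2 fold change of 0.72 (standard error 0.14, edgeR adjusted p = 0.00177), and was at 11.7 ± 1.68 and 11.6 ± 1.88 CPM in NRF2 KO Con and MR (n = 6 each). On MR the difference between NRF2 KO and WT was -0.79 (standard error 0.14, edgeR adjusted p = 0.00121), with no overlap between the mice. The interaction was -0.73 (standard error 0.20, unadjusted p = 0.00101, edgeR adjusted p = 0.294), so the genotypes were not shown to differ in their response. Amd1 has a near-identical relative in the genome, and how the authors' counting divided reads between them is not known.

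Among transporters and paralogs, 13 were tested, of which 4 were higher and 1 lower for MR in WT, and 4 higher and 2 lower in NRF2 KO. The count of 5 in WT was 3 without WT_CON_7603 or WT_MR_7616 and where only the groups compared were fitted. Slc7a1, a cationic amino acid transporter, was at 1.97, 1.67, 1.25, 2.82 and 3.78 CPM in the WT Con mice and at 7.04, 5.30, 4.93, 3.77 and 6.48 in the WT MR mice, which overlap by 1 mouse of each group. In NRF2 KO it ran from 0.738 to 1.36 CPM on Con and from 2.39 to 8.58 on MR without overlap. The log2 fold changes of Slc7a1 were 1.25 (standard error 0.30, edgeR adjusted p = 0.00828) and 2.21 (standard error 0.30, edgeR adjusted p = 7.89e-05), with an interaction of 0.96 (standard error 0.43, edgeR adjusted p = 0.630). Its genotype difference was -1.08 on Con (standard error 0.33, edgeR adjusted p = 0.101) and -0.12 on MR (standard error 0.27), in log2 units, and edgeR called neither.

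Slc7a7, the light chain of a transporter of cationic amino acids, was at 3.98 ± 1.15 CPM on Con and 7.53 ± 0.969 on MR in WT (n = 5 each) and rose likewise from 3.47 ± 1.06 to 7.64 ± 1.04 CPM in NRF2 KO (n = 6 each), with log2 fold changes of 0.92 and 1.17 (edgeR adjusted p = 0.00281 and 0.000188). Slc38a2, a glutamine and alanine carrier, rose by 0.59 and 0.45 on the log2 scale (edgeR adjusted p = 0.00185 and 0.00844). Slc7a2, another cationic amino acid transporter of the liver, rose by 0.45 in WT (edgeR adjusted p = 0.0243), a call that was lost over all 24 mice (edgeR adjusted p = 0.0679), and its value in NRF2 KO was 0.32 (edgeR adjusted p = 0.0798).

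Rhbg, an ammonia transporter of pericentral hepatocytes, was at 6.58, 13.1, 14.0, 7.08 and 8.19 CPM in the WT Con mice and at 4.45, 6.13, 7.95, 3.31 and 5.44 in the WT MR mice. It fell by 0.82 in WT and 0.84 in NRF2 KO on the log2 scale (standard errors 0.25 and 0.22, edgeR adjusted p = 0.0310 and 0.0160). Slc1a2, a glutamate transporter of the same cells, was called in NRF2 KO (-0.57, edgeR adjusted p = 0.0281) and not in WT (-0.51, edgeR adjusted p = 0.0629), and over all 24 mice the call in NRF2 KO was lost (edgeR adjusted p = 0.277). Slc1a5, which was also higher in NRF2 KO, is outside the rule and was picked out after its value was seen. The paralog Slc25a2 was in the table, at 0.273 CPM on average, and did not pass the filter on low counts.

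**Figure D4:**
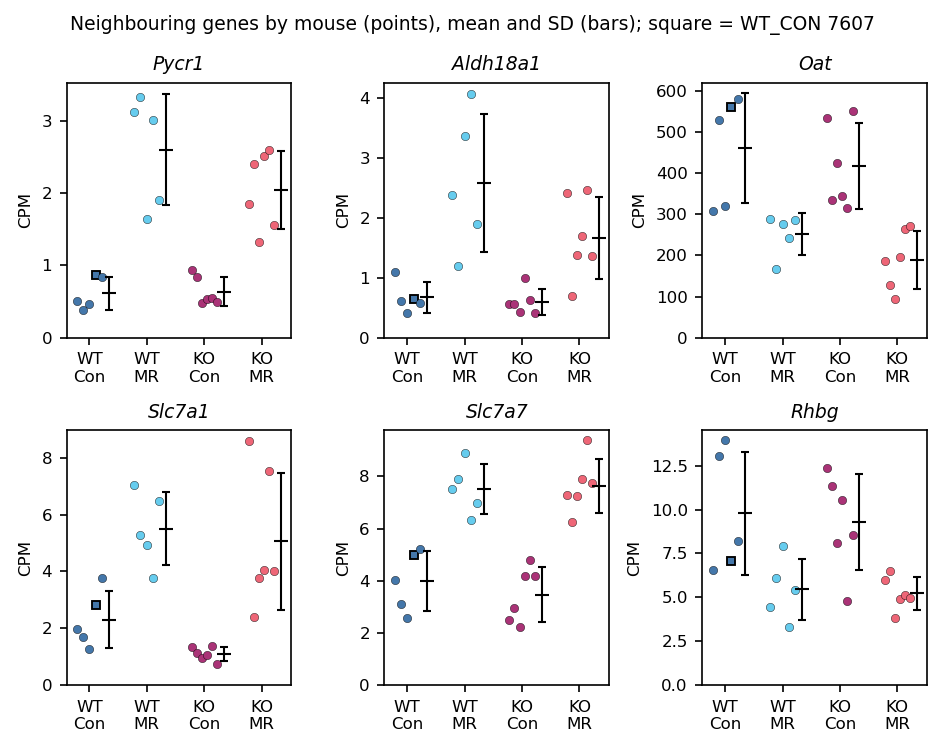
Level in CPM (y axis, from 0) of 6 neighbouring genes in every mouse (points) by group, with the mean and SD (bars) and the library labelled WT_CON_7607 as a square. With MR, Pycr1, Aldh18a1, Slc7a1 and Slc7a7 are higher and Oat and Rhbg lower in both genotypes, and the mice do not overlap in either genotype for Pycr1, Slc7a7 and Oat.

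The 15 regulators of the cycle were all tested, of which 3 were higher for MR in WT, and 1 was higher and 2 lower in NRF2 KO. In WT these were Klf15 (0.50, edgeR adjusted p = 0.0109), a factor that drives amino acid breakdown, Gcgr (0.30, edgeR adjusted p = 0.0203), the glucagon receptor, and Foxo1 (0.31, edgeR adjusted p = 0.0481), which insulin holds in check, all as log2 fold changes. Without the library labelled WT_CON_7607 the count in WT was 1, Klf15, with Gcgr at 0.22 (edgeR adjusted p = 0.0513) and Foxo1 at 0.26 (edgeR adjusted p = 0.111). It was also 1 without WT_MR_7613 and where only the groups compared were fitted, and the count of 3 in NRF2 KO was 5 without KO_CON_7622 and with scaling by library size only. In NRF2 KO, Atf4, a stress factor, rose by 0.34 on the log2 scale (edgeR adjusted p = 0.0126), Cebpa, a hepatocyte factor, fell by 0.47 (edgeR adjusted p = 0.00315) and Creb3l3, a membrane-bound factor of fasting, fell by 0.33 (edgeR adjusted p = 0.0105). In WT their values had the same signs and were not called (Atf4 0.27, Cebpa -0.28 and Creb3l3 -0.21, edgeR adjusted p = 0.0642, 0.0829 and 0.131).

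Between genotypes on Con, Foxo1 was higher in NRF2 KO, at 45.3 ± 4.97 CPM (n = 6) against 32.2 ± 3.76 in WT (n = 5), with no overlap (log2 0.50, standard error 0.10, edgeR adjusted p = 0.00669). Klf15 was also higher, at 69.8 ± 13.7 CPM (n = 6) against 49.1 ± 5.00 (n = 5), with a log2 difference of 0.51 (standard error 0.12, edgeR adjusted p = 0.0267), a call that was lost without the library labelled WT_CON_7607 (0.48, edgeR adjusted p = 0.0569). On MR neither difference was called (Foxo1 0.29, Klf15 0.18). Atf4 had a log2 difference of -0.33 on Con that was not called (edgeR adjusted p = 0.0637) and was called over all 24 mice (-0.44, edgeR adjusted p = 0.0308).

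Of the 35 calls of named neighbours in these comparisons, 21 held in each alternative and each fit without 1 mouse that gave an adjusted p, and none of the 35 changed sign. Pycr1, Aldh18a1 and Slc7a1 had fewer than 10 counts in some libraries, so the filter of 10 or more counts left them untested. For MR in WT, the call of Mdh2 was lost without WT_CON_7603, WT_MR_7609 or WT_MR_7615, and that of Gcgr without the library labelled WT_CON_7607 or WT_MR_7613. The call of Rhbg was lost without WT_CON_7603, WT_CON_7605, WT_MR_7609, WT_MR_7615 or WT_MR_7616, and that of Slc7a2 without WT_CON_7602, WT_CON_7603, WT_CON_7605, WT_MR_7613 or WT_MR_7616. The call of Oat in WT was lost without any 1 of the 5 WT MR mice, WT_CON_7603, the library labelled WT_CON_7607 or WT_CON_7608. That of Ddah1 was lost without WT_CON_7603, WT_CON_7605, the library labelled WT_CON_7607, WT_MR_7611, WT_MR_7613, WT_MR_7615, WT_MR_7616 or KO_MR_7625. That of Foxo1 was lost in 12 of the 22 fits, without WT_CON_7603, the library labelled WT_CON_7607, WT_CON_7608, WT_MR_7611, WT_MR_7613, WT_MR_7616, KO_CON_7617, KO_CON_7621, KO_MR_7625, KO_MR_7627, KO_MR_7628 or KO_MR_7629.

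In NRF2 KO, the call of Mdh2 with MR was lost without KO_CON_7618, KO_MR_7629 or KO_MR_7631, and that of Slc1a2 without KO_CON_7618, KO_CON_7623, KO_MR_7627, KO_MR_7628 or KO_MR_7629. That of Got1 was lost in 10 of the 22 fits, without WT_MR_7611, WT_MR_7613, KO_CON_7617, KO_CON_7618, KO_CON_7621, KO_MR_7625, KO_MR_7627, KO_MR_7628, KO_MR_7629 or KO_MR_7632. The genotype call of Klf15 on Con was lost without WT_CON_7602, WT_CON_7603, the library labelled WT_CON_7607, KO_CON_7617, KO_CON_7620 or KO_CON_7623. In the fits without 1 mouse the adjusted p of a lost call reached 0.132 at most (edgeR, Foxo1 in WT). Scaling by library size only ended the calls of Oat in WT and of Got1, Agmat, Slc1a2 and Creb3l3 in NRF2 KO. Fits of only the groups compared ended those of Mdh2, Rhbg, Slc7a2, Gcgr and Foxo1 in WT and of Klf15 on Con, limma ended that of Got1, and the filter of 10 or more counts ended that of Foxo1 in WT.

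Markers of both ends of the liver lobule and of other cells were read beside these values. Of 11 periportal markers edgeR called 0 in any comparison, with 2 at an unadjusted p under 0.05 for MR in each genotype (beside 28.3% and 27.3% of all genes), 2 and 3 for genotype on Con and MR (beside 14.4% and 13.9%) and 0 for the interaction. DESeq2 called 1 of them for MR in each genotype and 1 for genotype on MR, and limma 1 for MR in WT. The periportal sum, led by Alb, was 80124 ± 10243 CPM in WT Con, 66513 ± 4571 in WT MR, 92496 ± 6511 in NRF2 KO Con and 81810 ± 8172 in NRF2 KO MR, and WT MR (at most 71703) did not overlap NRF2 KO MR (at least 73316). Without Alb the sums of the other 10 were 8173 ± 2081, 8052 ± 614, 8381 ± 624 and 7535 ± 583 CPM in that order, and WT MR and NRF2 KO MR overlapped. Of all 13336 genes tested, 921 were lower for MR in WT and 846 in NRF2 KO. Of 12 pericentral markers, 3 were lower for MR in WT (Lect2, Oat and Rhbg) and 5 in NRF2 KO (those and Glul and Slc1a2), and Oat, Rhbg, Glul and Slc1a2 are also on the lists above. The pericentral sum, led by Cyp2e1, was 5379 ± 434 CPM in WT Con, 4507 ± 395 in WT MR, 6158 ± 1197 in NRF2 KO Con and 4804 ± 623 in NRF2 KO MR (n = 5, 5, 6 and 6).

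The counts of lower markers that follow also stand beside 921 (MR in WT) and 846 (MR in NRF2 KO) of 13336 genes. Of 10 Kupffer cell markers 6 were lower for MR in WT and 4 in NRF2 KO, and their sum, led by Cd5l, was 569 ± 69.5, 419 ± 19.8, 532.5 ± 84.0 and 443 ± 48.8 CPM in the same order of groups. Of 8 stellate cell markers 5 and 4 were lower, with sums, led by Dcn, of 584 ± 138, 430.2 ± 49.9, 534 ± 28.4 and 482 ± 40.2 CPM. Of 5 bile duct markers tested 4 were lower for MR in WT and 1 in NRF2 KO. The sum of all 6 bile duct markers in the table, led by Sox9, ran from 49.4 to 73.3 CPM in WT Con and 20.9 to 28.3 in WT MR. It ran from 31.8 to 53.6 CPM in NRF2 KO Con and 20.7 to 29.0 in NRF2 KO MR. The part of these cell types in the levels of the urea cycle genes and their neighbours was not tested.

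For the remaining marker lists, 1 of 8 endothelial markers (Kdr, higher) was called for MR in NRF2 KO, 1 of 3 neutrophil markers (Retnlg, lower) for MR in WT and 1 of 5 red cell markers (Alas2, lower) for MR in both genotypes. The bile duct marker Spp1 was lower in NRF2 KO than in WT on Con. Of 10 hepatocyte markers Apoa1 was lower with MR in both genotypes and higher in NRF2 KO than in WT on MR. Both kidney and intestine markers tested were called for MR in both genotypes, Vil1 higher and Fabp2 lower. Of 5 lymphocyte markers edgeR, DESeq2 and limma called 0 in any comparison, with 1 at an unadjusted edgeR p under 0.05, for genotype on Con. The marker genes in these sentences are named because they were called, after their values were seen. Their counts stand beside 13.8% of all genes called between the WT diet groups and 12.6% between the NRF2 KO diet groups. Between genotypes 2.07% of all genes were called in mice fed Con and 1.93% in mice fed MR. An unadjusted edgeR p under 0.05 between genotypes fed Con was found for 14.4% of all genes.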

How the data were processed

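The authors prepared 1 QuantSeq 3′ library per mouse and mapped and counted the reads with the kit maker's pipeline. The authors deposited a whole-number count for each gene and mouse, without normalization. They also deposited a signal table, in which each count is scaled by the DESeq2 size factor of its library (largest relative deviation 9.9e-15). The submitters' processing notes name GRCm38, DESeq2 1.18.1 and R 3.4.3, and the aligner's settings are not given in the sources used here. The labels give reads of 50 bp, which the study's methods state differently.

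The counts of 15160 genes (15119 with a GENCODE M21 symbol) were fitted in R 4.3.3 with edgeR 4.0.16 (TMM, filter by expression, robust quasi-likelihood tests), with all 4 groups in 1 model and no covariate. The filter kept 13336 genes and left out 1824, and the threshold was 0.05 after Benjamini-Hochberg adjustment. Correlations used log2 CPM with a prior count of 2. All samples could be mapped to a group by their titles. The smallest chi-square per degree of freedom between 2 libraries of a group was 8.32, so no pair within a group was a repeat, and pairs across groups were not compared.

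Alternatives were DESeq2 size factors in edgeR, library size only, no filter, 10 or more counts in each library, DESeq2 1.42.0, limma 3.58.1 on log2 of the deposited normalized counts plus 1, all 24 mice, only the groups compared, and each mouse left out in turn. The model was tested on simulated data. Named genes are the members, Nfe2l2, and genes of the 4 lists called for MR with at least 1 CPM on average, up to 6 of each list by p, or called for genotype or the interaction. The 5 genes of most similar profile follow the highest Pearson r. The members and lists were chosen with earlier results of these data known, and support nothing on their own. Of the 8 members, 1 is not reported here and enters no count or summary of members. Errors are SDs over mice or standard errors of fitted values, and intervals are 95%. Motifs were searched in RefSeq promoters, in which 25 of 29 genes sought had a window.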

Additional observations from a re-analysis of the deposited data

Results flagged for a closer look

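Of 120 sets of mice (a named gene in a group), 10 held a mouse that stood apart from the rest of its group by Dixon's test at the 95% level, which chance gives in about 1 of 20. Among the urea cycle genes, Cps1 was at 566 CPM in WT_MR_7615 (the other WT MR mice 741 to 795), Ass1 was at 739.7 CPM in KO_MR_7632 (others 468 to 566) and Slc25a15 was at 294.3 CPM in WT_CON_7605 (others 213.5 to 237). Nfe2l2 was at 324 CPM in the library labelled WT_CON_7607 (others 106 to 125), which also had Amd1 at 7.513 CPM (others 12.3 to 14.2). In KO_CON_7620 Asns was at 1.38 CPM (others 4.27 to 5.89) and Gcgr at 114.3 CPM (others 104 to 107.5). Got1 was at 137.2 CPM in KO_MR_7631 (others 97.4 to 111), Slc38a2 at 171.7 CPM in WT_MR_7616 (others 123 to 130.5) and Atf4 at 318.1 CPM in WT_MR_7609 (others 220.4 to 244). The part of depth or tissue in these values was not tested.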

How the results depend on the processing

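Of the members' log2 fold changes under 8 alternatives, 255 kept their direction and their side of the threshold, 16 changed sign and 2 became calls, and in 22 fits without 1 mouse 711 did, 57 changed sign and 2 became calls. For MR in WT 1 member (Nags) was called with a filter of 10 or more counts in each library, with DESeq2, without WT_MR_7615 and without KO_CON_7617 (range 0 to 1 without 1 mouse). Over all genes, scaling by library size only gave 2785 calls for MR in NRF2 KO in place of 1677, and moved the median log2 fold change by 0.156 there and 0.093 in WT. Between genotypes the counts were 276 on Con and 258 on MR, and they became 444 and 496 with DESeq2 and 99 and 600 in fits of only the groups compared. DESeq2 called 36 genes for the interaction in place of 6. Without 1 mouse the count on Con ran from 181 (without WT_CON_7603) to 314, and that of the interaction from 3 (without WT_MR_7611, among others) to 12 (without the library labelled WT_CON_7607).

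Scaling by library size only turned the sign of Asl (MR in NRF2 KO 0.046, genotype on MR 0.017), Ass1 (MR in NRF2 KO 0.137), Slc25a13 (MR in NRF2 KO 0.153) and Cps1 (genotype on Con -0.022, genotype on MR 0.033, interaction 0.055). Cps1 for genotype on MR was also 7.7e-05 without a filter, 0.0043 with the filter of 10 counts, 0.0066 with limma, 0.023 over 24 mice and 0.0024 with only the groups compared. Limma gave -0.0022 for Nags (genotype on MR) and 0.011 for Slc25a13 (MR in NRF2 KO). All 24 mice gave -0.036 for Ass1 (genotype on MR) and -0.024 for Slc25a15 (interaction).

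Without 1 mouse, the values that turned ran from -0.017 to 0.211 for Asl (MR in WT), from -0.068 to 0.021 for Asl (genotype on MR), from -0.110 to 0.084 for Ass1 (MR in NRF2 KO), from -0.094 to 0.110 for Ass1 (genotype on MR), from -0.096 to 0.113 for Cps1 (genotype on Con), from -0.082 to 0.028 for Cps1 (genotype on MR), from -0.113 to 0.097 for Cps1 (interaction), from -0.042 to 0.084 for Nags (genotype on MR), from -0.099 to 0.465 for Nfe2l2 (interaction), from -0.230 to 0.0095 for Otc (MR in WT), from -0.157 to 0.080 for Otc (genotype on Con), from -0.059 to 0.066 for Slc25a13 (MR in NRF2 KO), from -0.021 to 0.111 for Slc25a13 (genotype on MR) and from -0.061 to 0.091 for Slc25a15 (interaction). The cause was not tested. No paired analysis was possible because each mouse belongs to 1 group and the groups share no numbers. The lowest count of a member in a mouse was 175 (Nags).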
